A study of Mus musculus with 12 samples.

Results

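The comparison of lung endothelial cells (ECs) at week 3 with ECs at week 1 after cancer cell injection rests on 6 of the 12 arrays of the series, the 3 labelled 3 weeks and the 3 labelled 1 week after intravenous (i.v.) injection. The remaining 6 arrays, 3 from healthy lungs and 3 from week 2, entered only where they are named. All 12 arrays came from NSG mice, which lack mature T, B and NK cells, so that every group shares this immune deficiency. The mice of weeks 1, 2 and 3 had received MDA-MB-231-LM2 cells (MDA231-LM2), a human breast cancer line selected for growth in the lung, and the healthy mice had received none. No array came from uninjected mice kept for 1 or 3 weeks, so time after injection and growth of the metastases cannot be told apart. The labels give no age, and the methods describe female mice aged 6 to 12 weeks for the mouse work as a whole. The labels call the 3 arrays of a group biological replicates without saying whether each is 1 mouse. If they are not, the p-values measure only the spread between these samples.

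The lung is lined by a dense capillary network whose ECs rarely divide in the adult. Metastases that outgrow their first niche recruit vessels, and ECs that take part in this divide, lay down basement membrane and can signal to cancer cells through secreted proteins and matrix. Interferons, which many cells release when they sense nucleic acids or inflammation, switch on a shared set of antiviral genes in ECs, among them chemokines that act on leukocytes.

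ECs were sorted as CD31-positive cells without CD45, CD11b, EpCAM, CD140a, CD140b or green fluorescent protein, which the cancer cells carry. Pecam1, which encodes CD31, had deposited log2 signals of 13.48, 13.53 and 13.47 at week 1 and 13.50, 13.50 and 13.46 at week 3. Its difference was -0.00 on the log2 scale (standard error 0.11), and 0 of 24 pan-endothelial markers passed limma's test, with 3 higher and 3 lower at an unadjusted p below 0.05. Epcam differed by -0.09, Itgam, which encodes CD11b, by 0.11, Pdgfra, which encodes CD140a, by -0.76 and Pdgfrb, which encodes CD140b, by 0.76, with adjusted p-values of 0.82, 0.887, 0.313 and 0.254 in that order. Ptprc, which encodes CD45, lay at 7.58, 8.61 and 8.37 at week 1 and at 9.15, 9.44 and 9.13 at week 3, so that all week 3 arrays were higher (log2 difference 1.05, adjusted p = 0.151).

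Each gene took its values from whichever of its single-symbol probe sets had the highest mean on the 12 arrays, and 18193 genes were read in this way. Of these, 118 (0.649%) rose and 35 (0.192%) fell between week 1 and week 3 at a limma adjusted p below 0.05. At an unadjusted p below 0.05, 1282 genes (7.05%) were higher and 1177 (6.47%) lower. Among the risen genes 103 differed by more than 2-fold, and among the fallen genes 21 did. The count of called genes changed with each array left out: 14 genes passed without array 1 of week 1, 52 without array 2 and 33 without array 3, while 30 passed without array 1 of week 3, 36 without array 2 and 0 without array 3. In that last limma fit 973 genes were still higher and 861 lower at an unadjusted p below 0.05. All 153 called genes kept their direction in each of these 6 fits. That outcome was fixed in advance, since no called gene had arrays that overlapped between the weeks.

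**Figure D1:**
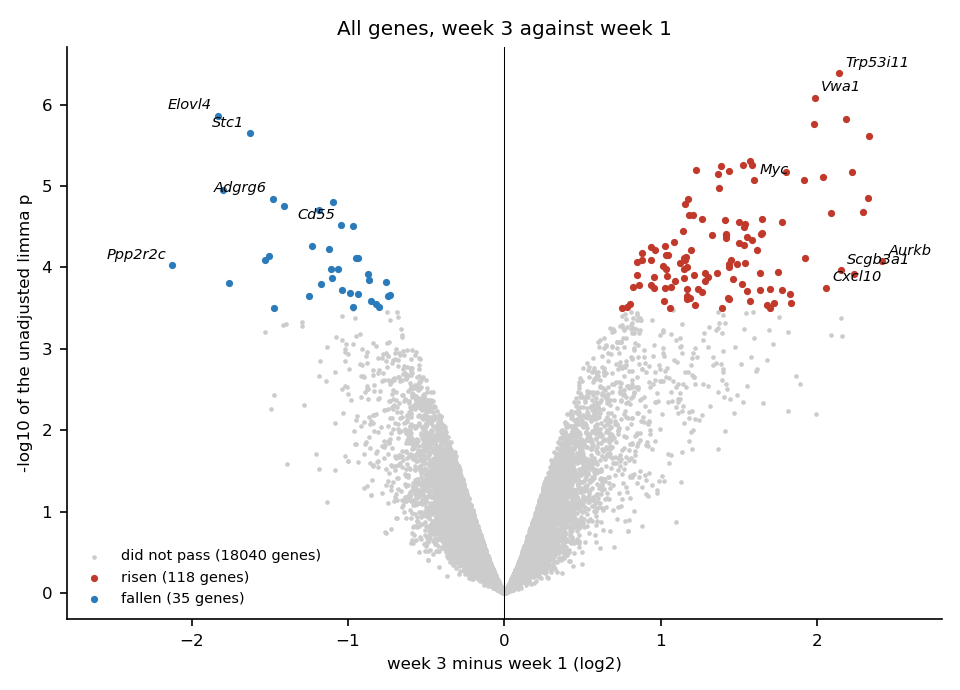
Difference between week 3 and week 1 for each of the 18193 genes (log2, horizontal) against -log10 of the unadjusted limma p (vertical), with 1 point per gene. The 118 risen genes (red) reach from 0.75 to 2.42 and the 35 fallen genes (blue) from -2.12 to -0.73, and the genes that did not pass are grey.

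The plot of all genes shows the rises as the larger and the wider arm. In all 153 called genes the 3 week 3 arrays and the 3 week 1 arrays did not overlap. The choice of these genes by their p on the same arrays favours this. Among all 18193 genes, the week 3 arrays all lay above those of week 1 in 1921 (10.6%) and all below in 2024 (11.1%). Casp4, Arhgap18 and Slc5a12 stood just inside the threshold (adjusted p = 0.0495 each), and Fam107a, Mad2l1 and Ttk just outside (adjusted p = 0.05 after rounding, 0.0503 and 0.0523).

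The largest rise was that of Aurkb, the kinase of the chromosomal passenger complex that controls chromosome attachment. It rose 5.35-fold, from log2 signals of 7.61, 7.61 and 6.79 to 9.56, 9.36 and 10.33 at week 3 (log2 2.42, standard error 0.31, adjusted p = 0.026). Ildr2, an immunoglobulin-like membrane protein, rose from 9.02, 9.65 and 9.57 to 11.73, 11.68 and 11.82 (log2 2.33, adjusted p = 0.00818). In both genes every week 3 array was more than 1.7 log2 units above every week 1 array. Olr1, a scavenger receptor for oxidized lipoprotein, rose from 6.29, 6.27 and 5.74 to 8.04, 8.41 and 8.52 (log2 2.22, adjusted p = 0.00891). Trp53i11, a membrane protein gene induced by p53, had the lowest p of all genes, with 9.40, 9.21 and 9.33 at week 1 and 11.58, 11.28 and 11.52 at week 3 (log2 2.14, standard error 0.13, adjusted p = 0.00614). The other large rises included enzymes and transport proteins, namely Car13, a carbonic anhydrase (log2 2.30), Clca3a1 (2.09) and Akr1b8, an aldo-keto reductase (2.04). Csf2rb, the beta chain shared by the receptors for interleukin 3, interleukin 5 and GM-CSF, rose from 7.99, 8.22 and 7.86 to 10.18, 9.89 and 9.94 (log2 1.98), and its paralog Csf2rb2 rose by 1.44. Both are closely related in sequence, and their signals may not be fully separate. AA467197 rose by 2.18.

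Falls were fewer, and 31 of the 35 belonged to no list described here. Ppp2r2c, a regulatory subunit of protein phosphatase 2A, fell from 9.27, 9.64 and 9.74 to 7.34, 8.02 and 6.91 (log2 -2.12, standard error 0.28, adjusted p = 0.0275). Elovl4, which elongates very long fatty acids, fell from 8.62, 8.54 and 8.77 to 6.74, 6.98 and 6.72 (log2 -1.83, adjusted p = 0.00818). Stc1, the secreted hormone stanniocalcin 1, fell from 10.41, 10.49 and 10.70 to 8.94, 8.85 and 8.94 (log2 -1.63, adjusted p = 0.00818). The week 3 arrays of Stc1 differed among themselves by less than 0.1, far below the gap to week 1. Olfm2, a secreted olfactomedin protein, fell by 1.80, Adgrg6, an adhesion receptor, by 1.48, and Scara5, a scavenger receptor for ferritin, by 1.76 on the log2 scale. Cmklr1, the receptor for the chemoattractant chemerin, fell by 1.18, and Cytl1, a secreted cytokine-like protein, by 1.17. Nkd2, an inhibitor of WNT signalling, fell by 1.23 (adjusted p = 0.0227), while its other 3 probe sets differed by -0.18, -0.91 and -0.30 without passing. Axin2, which limits WNT signalling too, fell by 0.99 (adjusted p = 0.0397), and its other probe set differed by -0.32 without passing. The remaining genes among the 15 largest falls were Bche, a cholinesterase, Itih5, Slc5a12, a monocarboxylate transporter, Rasgrf2, Tmem44 and Elac1, with log2 differences from -1.53 to -1.12.

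**Figure D2:**
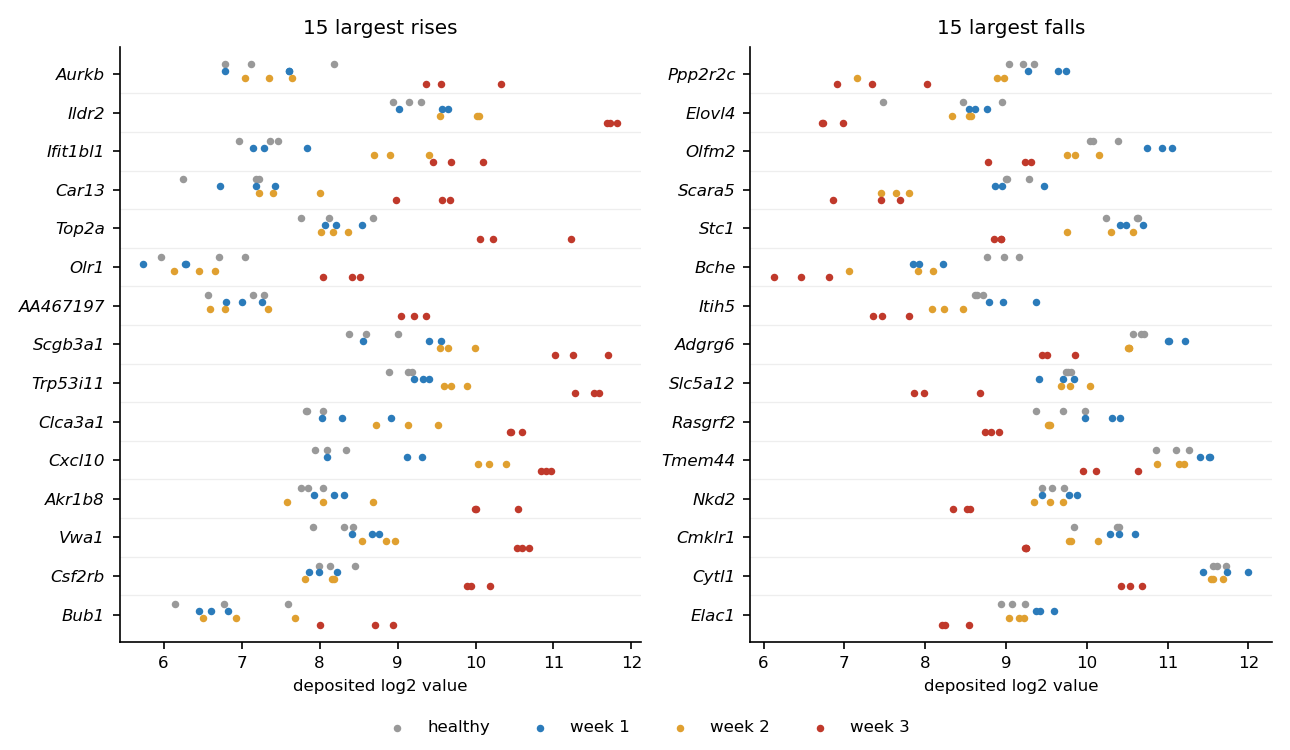
Deposited log2 value on each of the 12 arrays for the 15 genes with the largest rises (left) and the 15 with the largest falls (right), with 1 point per array coloured by group. The 3 week 3 points stand apart from the 3 week 1 points in every row, while healthy and week 2 points lie mostly near week 1, with exceptions such as Cxcl10, Ifit1bl1 and Scara5.

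As the plot of the 15 largest rises and falls shows, most of these genes had healthy and week 2 values near week 1. For Top2a and Scara5, a second probe set of lower mean signal moved the other way (log2 -0.25 and 0.09), and neither of these passed the test. Of 91 called genes with more than 1 probe set, all other probe sets moved in the same direction in 80, another probe set was also called in 31, and in none was another probe set called in the opposite direction.

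Some cell division genes rose, and of the 52 lists described the mitosis list had the most risen members, although most of its members did not pass. Of 57 mitosis genes measured, 11 rose (19.3%) and 0 fell, 56 were higher at week 3, and the median log2 difference was 1.21, against -0.02 over all genes. Over all 18193 genes, 8336 were higher at week 3 and 9857 lower. Top2a, the topoisomerase that untangles replicated DNA, rose from 8.21, 8.54 and 8.07 to 10.23, 10.06 and 11.23 (log2 2.23, standard error 0.31, adjusted p = 0.0311). Mki67, the gene of the proliferation marker Ki-67, rose from 9.35, 9.93 and 9.26 to 11.17, 10.82 and 11.71 (log2 1.73, adjusted p = 0.0463). Array 3 of week 3 was the highest of the week in both genes, but the lowest week 3 array still exceeded every week 1 array. The spindle checkpoint kinase Bub1 rose by 1.92, the spindle assembly factor Tpx2 by 1.84, Cks2, a partner of cyclin-dependent kinases, by 1.83, and the kinetochore protein Cenpf by 1.68. No other probe set of these genes passed. They differed by 0.35 for Bub1, by 0.77, -0.19 and 0.07 for Tpx2, by 1.10 for Cks2 and by 0.04 and 0.47 for Cenpf. The other risen members were Kif23, Smc2, Spag5 and Spc24. The one member that was lower was Bub3 (log2 -0.05). Nuf2, a kinetochore subunit, differed by 1.89 without passing (adjusted p = 0.123). The number of risen mitosis genes fell to 2 without array 2 of week 3, to 1 without array 1 of week 3, and to 0 without any one of the other 4 arrays, while the list median stayed between 0.95 and 1.48.

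Of 41 DNA replication genes, 4 rose and 0 fell, with 39 higher and a median of 0.81. Uhrf1, which reads methylated DNA at replication forks, rose from 8.89, 8.86 and 8.31 to 10.21, 10.59 and 10.60 (log2 1.78, adjusted p = 0.0178). The replication licensing regulator Gmnn rose by 1.57, the histone chaperone Asf1b by 1.56 and Gins1, a subunit of the replicative helicase, by 1.22. Rrm2, a subunit of ribonucleotide reductase, had a larger difference that did not pass (log2 2.16, standard error 0.36, adjusted p = 0.057). Cdc45, another helicase subunit, went the other way without passing (log2 -0.43). Without 1 array, from 0 to 2 members of this list passed, with 2 when array 2 of week 1 was left out and 0 when array 1 of week 1, array 2 of week 3 or array 3 of week 3 was.

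The DNA repair list (26 genes, median 0.36) and the list of G1 to S control (23 genes, median 0.22) had no member that passed, although 13 and 8 members were higher at an unadjusted p below 0.05 and 0 lower. In the first Brca1 came closest (log2 1.40, adjusted p = 0.0549), and in the second E2f8, a repressor that follows S phase entry, had the largest difference (1.52, adjusted p = 0.0988). Over these 4 cell cycle lists together, 15 of 147 genes rose and 0 fell, and in 99 all week 3 arrays lay above all week 1 arrays, with 0 the other way. Of all genes, 10.6% lay above and 11.1% below in this way. Among 23 inhibitors of cyclin-dependent kinases and p53 targets 0 passed (3 higher and 6 lower at an unadjusted p below 0.05), and the largest difference was that of Cdkn1c, which encodes p57 (1.99-fold lower, adjusted p = 0.104). Myc, the growth-promoting transcription factor, rose from 7.58, 7.81 and 7.85 to 9.13, 9.53 and 9.36 (3.02-fold, standard error 0.15 on the log2 scale, adjusted p = 0.00982). Of the other 25 genes of MYC and ribosome biogenesis none passed, although 23 of the 26 were higher (median 0.24).

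The promoters of 4 risen members of these lists are shown for the letters that textbook cell cycle promoters share. Genes active in mitosis often carry CCAAT boxes and a cell cycle homology region (CHR), read here as TTTGAA or TTCGAA. The 4 were chosen because they hold a CHR before the start, as 4 of the 10 risen members with a promoter window did. Bub1, Cenpf, Kif23 and Spag5 held one only after the start, and Cks2 and Uhrf1 held none in the window. Each line gives the bases just before the start of the gene in RefSeq on build GRCm38.p6, 5′ to 3′, in capitals wherever either motif occurs on either strand. Top2a lies at chr11:99024190-99024439 on the minus strand, Mki67 at chr7:135716380-135716579 on the minus strand, Asf1b at chr8:83955484-83955693 on the plus strand and Smc2 at chr4:52439071-52439220 on the plus strand.
Top2a: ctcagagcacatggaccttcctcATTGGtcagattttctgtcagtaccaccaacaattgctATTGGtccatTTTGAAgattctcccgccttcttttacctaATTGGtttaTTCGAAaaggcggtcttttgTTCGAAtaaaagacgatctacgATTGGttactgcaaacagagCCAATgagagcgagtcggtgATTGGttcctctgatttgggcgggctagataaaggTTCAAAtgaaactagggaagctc
Mki67: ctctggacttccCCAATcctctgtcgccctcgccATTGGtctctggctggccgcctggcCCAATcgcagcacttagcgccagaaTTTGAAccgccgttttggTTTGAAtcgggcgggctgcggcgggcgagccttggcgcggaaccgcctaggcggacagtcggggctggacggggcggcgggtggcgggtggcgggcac
Asf1b: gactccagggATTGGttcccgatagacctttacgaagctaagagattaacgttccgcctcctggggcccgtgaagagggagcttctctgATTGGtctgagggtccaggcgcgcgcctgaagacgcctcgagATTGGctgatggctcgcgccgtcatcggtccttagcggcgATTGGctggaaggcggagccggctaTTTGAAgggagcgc
Smc2: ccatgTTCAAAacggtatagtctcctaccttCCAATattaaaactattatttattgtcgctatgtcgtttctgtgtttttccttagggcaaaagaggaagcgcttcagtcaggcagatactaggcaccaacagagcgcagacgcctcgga
These stretches hold 6, 3, 4 and 1 CCAAT letters and 4, 2, 1 and 1 CHR letters, in the order shown. In windows from 250 bases before to 50 bases after the start, which were found for 14452 of the 18193 genes, CHR letters occurred in 37 of 48 mitosis genes (77.1%) and in 2174 of the 14452 genes, and CCAAT in 79.2% against 38.2%. Before the start alone the CHR shares were 37.5% and 13.4%. Of the 15 risen mitosis and replication genes 10 had a window, all 10 of which held CCAAT, 8 (80.0%) held a CHR, 4 (40.0%) held one before the start and 0 held the E2F letters below. Of 35 DNA replication genes with a window, 12 (34.3%) held the E2F letters TTTCCCGC, TTTGGCGC or TTTCGCGC, against 2.92% of all genes. Of all 83 risen genes with a window 17 (20.5%) held a CHR, and before the start 14.5% did, near the shares of all genes, while 0 of the 28 fallen genes with a window held one. Motifs were counted separately on both strands and may overlap, and such letters describe the sequence and are not evidence of binding.

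Interferon-stimulated genes rose in part. Of 39 measured, 5 rose (12.8%) and 0 fell, 37 were higher and the median was 0.31. Mx1, an antiviral GTPase, rose from 8.22, 8.72 and 8.46 to 9.96, 9.99 and 9.70 (log2 1.42, standard error 0.16, adjusted p = 0.0198). Irf7, the transcription factor that amplifies type I interferon responses, rose from 10.86, 11.21 and 10.92 to 12.07, 12.01 and 12.06 (log2 1.05, adjusted p = 0.0256). In both genes the week 3 arrays lay within 0.3 of each other and above all of week 1. Ifi204, a sensor of DNA, rose by 1.54, Zbp1, a sensor of nucleic acids that can trigger cell death, by 1.24 and Ifit2, which binds RNA and blocks its translation, by 1.17. Rsad2, the antiviral enzyme viperin, differed by 1.14 (adjusted p = 0.0612) and Oasl1 by 1.10 (adjusted p = 0.0964). Genes outside the list also rose: Ifit1bl1, a relative of the antiviral Ifit genes, by 2.32, Ifi202b, of the same family as Ifi204, by 1.38, and Sting1, the adaptor of cytosolic DNA sensing, by 1.28. With 1 array left out the number of risen list members was 3 without array 2 of week 1, 1 without array 3 of week 1, 1 without array 1 of week 3 and 0 without any one of the other 3 arrays.

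The level of these genes was lowest on the healthy arrays. Mx1 lay at 7.16, 7.26 and 7.30 in healthy ECs and at 8.48, 8.42 and 9.06 at week 2, which overlapped week 1. The mean deviation of the 39 genes from the midpoint of their week 1 and week 3 means was between -0.95 and -0.88 on the healthy arrays, -0.42 to -0.12 at week 1, -0.22 to -0.15 at week 2 and 0.16 to 0.27 at week 3. None of 10 GTPases induced by interferon gamma passed (median 0.15), none of 17 genes of MHC class I presentation did (median 0.07, largest Nlrc5 at 0.65, adjusted p = 0.0803), and none of 8 genes of MHC class II (median 0.39). At an unadjusted p below 0.05, 3, 2 and 4 genes of these lists were higher and 0 lower.

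Of 31 chemokine genes 3 rose and 0 fell (median 0.31). Cxcl10, a ligand of CXCR3 that draws T and NK cells, went from 8.09, 9.31 and 9.12 at week 1 to 10.84, 10.90 and 10.97 at week 3 (log2 2.06, standard error 0.30, adjusted p = 0.0371), and its week 2 arrays at 10.39, 10.03 and 10.17 lay between. Array 1 of week 1 was the lowest by more than 1 log2 unit. Ccl5, another T cell chemokine, rose by 1.18 (adjusted p = 0.0137) and Cxcl2, a neutrophil chemokine, by 1.15 (adjusted p = 0.0256). The healthy arrays of Cxcl2, at 8.53, 7.31 and 7.39, overlapped its week 3 arrays at 7.78, 7.64 and 7.98. Cxcl9, a further CXCR3 ligand, differed by 1.20 without passing (adjusted p = 0.112). Cx3cl1, the endothelial chemokine fractalkine, was among the lower members (log2 -0.55, adjusted p = 0.147). Left out singly, array 1 of week 1, array 2 of week 1 and array 2 of week 3 each left 1 risen chemokine gene and the other 3 arrays left 0.

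The promoters of Cxcl10 and Ifit1bl1 are printed because they hold the letters GAAANNGAA of the interferon response element, in capitals on either strand, where N is any base. On GRCm38.p6, the stretch of Cxcl10 is chr5:92348890-92349119 and that of Ifit1bl1 chr19:34601969-34602168, both on the minus strand and both ending at the RefSeq start.
Cxcl10: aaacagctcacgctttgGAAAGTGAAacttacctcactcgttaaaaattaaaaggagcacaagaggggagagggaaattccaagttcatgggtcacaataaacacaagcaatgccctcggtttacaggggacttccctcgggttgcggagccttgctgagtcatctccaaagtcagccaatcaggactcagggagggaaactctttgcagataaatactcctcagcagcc
Ifit1bl1: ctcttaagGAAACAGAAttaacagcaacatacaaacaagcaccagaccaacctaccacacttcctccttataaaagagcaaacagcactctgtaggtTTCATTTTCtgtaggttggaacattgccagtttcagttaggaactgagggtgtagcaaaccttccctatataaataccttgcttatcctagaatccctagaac
Cxcl10 holds 1 such element here and Ifit1bl1 holds 2. Of 27 interferon-stimulated genes with a window 13 (48.1%) held the letters, against 7.36% of all genes. Only 2 of the 5 risen members of the list had a window, and 0 of the 2 held them. Of all 83 risen genes with a window 11 (13.3%) did.

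Genes of the extracellular matrix rose selectively. Of 27 basement membrane genes 5 rose (18.5%) and 0 fell, but the list median was 0.04, since 13 members were lower. Vwa1, a matrix protein that binds perlecan, rose from 8.76, 8.67 and 8.42 to 10.53, 10.59 and 10.68 (log2 1.99, standard error 0.13, adjusted p = 0.00818). Lama1 and Lamb1, the alpha 1 and beta 1 chains of laminin, rose from 8.48, 8.78 and 8.12 to 10.07, 9.90 and 9.92 (log2 1.5, adjusted p = 0.0215) and from 9.53, 9.45 and 9.78 to 11.48, 11.04 and 10.90 (log2 1.56, adjusted p = 0.0205). No array overlapped between the weeks in these 3 genes. Col15a1 rose by 1.27 and Col18a1, whose collagen holds the endostatin fragment, by 1.04. Lama4, the laminin alpha chain of mature endothelium, differed by 0.84 (adjusted p = 0.0661), Col4a1 by 0.18 (adjusted p = 0.537), and Lama3 was lower without passing (log2 -1.30, adjusted p = 0.0633). Without 1 array, 4 members rose when array 2 of week 1 was left out, 2 without array 1 of week 3, 1 without array 1 or array 3 of week 1 or array 2 of week 3, and 0 without array 3 of week 3.

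Of 26 genes of the interstitial matrix 3 rose and 0 fell (median 0.23). Fn1, fibronectin, rose from 11.06, 10.94 and 10.88 to 12.27, 11.89 and 12.30 (log2 1.20, adjusted p = 0.0236). Tnc, tenascin C, rose from 7.18, 7.46 and 7.71 to 9.34, 8.62 and 8.95 (log2 1.52, adjusted p = 0.036). Col1a1, the main fibrillar collagen, rose from 11.09, 10.85 and 10.69 to 12.26, 11.78 and 12.09 (log2 1.17, adjusted p = 0.0374). The other probe sets of Fn1, Tnc and Col1a1, with mean signals of 6.66, 5.97 and 10.35, differed by 0.14, 0.24 and 1.44 without passing. Without array 2 of week 1 or array 2 of week 3, 1 of these genes passed, and without any one of the other 4 arrays 0 did. Their healthy means, and that of Lamb1, lay above week 1, for Col1a1 at 11.87 against 10.88. Col1a1 is a fibroblast marker too, and by the probe sets of highest mean it was the only one of 18 fibroblast markers to rise. Their median was -0.15, with 4 higher and 6 lower at an unadjusted p below 0.05. Dcn, another matrix gene of fibroblasts, was lower (log2 -0.58, adjusted p = 0.198). Col3a1, a further marker of this list, differed by 0.33 (adjusted p = 0.302), while another probe set of it passed (0.83, adjusted p = 0.0312). The part of fibroblast RNA in these values was not tested. Among 23 matrix proteases and inhibitors, Adamts4, which cleaves proteoglycans, rose by 1.70 and Timp1, an inhibitor of metalloproteinases, by 0.96. Of 17 integrins only Itgb3, which pairs into the receptor for vitronectin and fibronectin, rose (log2 1.42, adjusted p = 0.0199).

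**Figure D3:**
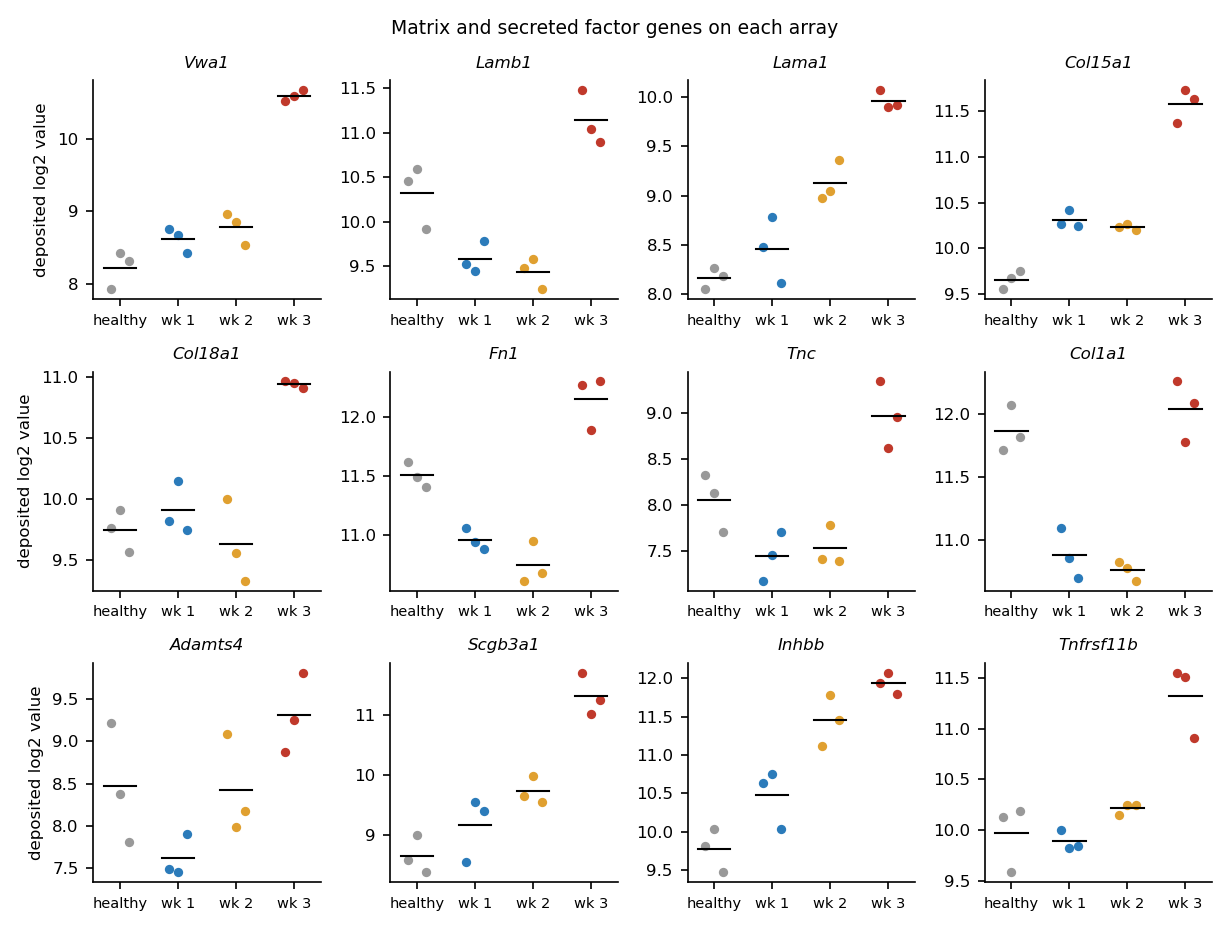
Deposited log2 value of 12 matrix and secreted factor genes on each array, with 1 point per array, a line at each group mean and 1 panel per gene with its own axis. Week 3 lies above week 1 in every panel, and in Lamb1, Fn1, Tnc, Col1a1, Adamts4 and Tnfrsf11b the healthy mean also lies above that of week 1.

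The study followed up the secreted factors encoded by Inhbb, Scgb3a1, Tnfrsf11b and Lama1, which it chose on these arrays, so their rises are no independent evidence. With Tnc they form a list of 5, all risen (median 1.5). Without array 2 of week 1 only 1 of them passed, and without any one of the other 5 arrays 0 did. Scgb3a1, a secretoglobin, had the largest difference, from 8.56, 9.56 and 9.40 to 11.70, 11.02 and 11.25 (log2 2.15, standard error 0.29, adjusted p = 0.0302). It is also an airway marker, and 1 of 18 airway markers, Scgb3a1 itself, rose (list median 0.07), with 4 higher and 1 lower at an unadjusted p below 0.05. Of the other airway markers, Bpifa1, a secreted airway protein, lay at 6.54, 6.76 and 6.49 at week 1 and 9.86, 7.43 and 8.49 at week 3 (log2 1.99, adjusted p = 0.173), and Scgb3a2, another secretoglobin, differed by 1.10 with overlapping arrays (adjusted p = 0.537). The part of airway RNA in the Scgb3a1 value was not tested here. By qPCR of cells sorted from metastatic lungs, the study reported distinct expression of Scgb3a1 in ECs beside fibroblasts, hematopoietic cells and epithelial cells. Inhbb, a subunit of activin B, stepped up over the weeks, from 10.64, 10.75 and 10.03 at week 1 over 11.12, 11.78 and 11.46 at week 2 to 11.94, 12.07 and 11.79 at week 3 (log2 1.46, adjusted p = 0.0333). Tnfrsf11b, the decoy receptor osteoprotegerin, rose from 9.89 ± 0.10 to 11.32 ± 0.36 (mean ± SD, n = 3, log2 1.44, adjusted p = 0.0269). Its second probe set rose by 1.92 (adjusted p = 0.00891). Another secreted protein, Lrg1, which modulates TGF-β signalling in vessels, rose from 10.30, 10.42 and 10.02 to 11.88, 11.86 and 11.77 (log2 1.59, adjusted p = 0.00891). Tgfbi, a matrix protein induced by TGF-β, rose by 1.44.

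In the panels of matrix and secreted factor genes, Vwa1, Lama1, Col15a1, Scgb3a1, Inhbb and Tnfrsf11b had their highest values at week 3 and healthy means below week 3 by more than 1 log2 unit. Of 34 genes of TGF-β, activin and BMP signalling only Inhbb rose and only Id2, a target of BMP signals, fell (log2 -0.82, adjusted p = 0.0466), and 23 of the 34 were lower (median -0.11). The other probe sets of Id2 differed by -0.24 and -0.13 without passing, while that of Inhbb passed (1.19, adjusted p = 0.0256). Inhba, the other activin subunit, differed by 1.43 without passing (adjusted p = 0.13).

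Of 34 genes of tip cells and angiogenesis 3 rose and 0 fell, with 19 higher, 15 lower and a median of 0.12. Rgcc, a cell cycle regulator induced by hypoxia, rose from 9.23, 9.07 and 8.82 to 10.95, 10.28 and 10.73 (log2 1.61, adjusted p = 0.0236). Adm, the vasoactive peptide adrenomedullin, rose from 8.87 ± 0.10 to 10.08 ± 0.15 (mean ± SD, n = 3, log2 1.21, adjusted p = 0.0167), a level near its healthy arrays at 10.24, 10.36 and 10.03. Fscn1, the actin-bundling protein of filopodia, rose by 1.03. The tip cell genes Apln (0.87, adjusted p = 0.057), Angpt2 (0.78, adjusted p = 0.0962) and Esm1 (0.59, adjusted p = 0.203) did not pass. Kdr, the main VEGF receptor, differed by -0.03, and 0 of 19 growth factor genes passed (median -0.03, with 4 higher and 4 lower at an unadjusted p below 0.05). Without array 2 of week 1 the list had 2 risen members, without array 2 of week 3 it had 1, and without any one of the other 4 arrays 0.

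Notch genes did not pass, though 16 of 19 were lower, 5 of them at an unadjusted p below 0.05 against 1 higher (median -0.13), among them the target Hes1 (-0.60, adjusted p = 0.125) and Notch1 (-0.38, adjusted p = 0.234). Markers of arterial endothelium, 12 of 14 of them lower, had a median of -0.33, the lowest of the lists, and 0 passed, with 5 lower and 0 higher at an unadjusted p below 0.05. The largest arterial difference was that of Htra1, a secreted protease (log2 -1.04, adjusted p = 0.0755), followed by Ltbp4 (-0.73, adjusted p = 0.0581). Of 16 venous markers Vwa1 and Col15a1 rose and Amigo2, a cell adhesion protein, fell (log2 -1.11, adjusted p = 0.0292). The other probe set of Amigo2 differed by -0.06 without passing. No marker of general capillary ECs (14 genes, median -0.09), of aerocytes, the large capillary cells of gas exchange (13 genes, median -0.10), or of lymphatic ECs (12 genes, median -0.09) passed, and 0, 1 and 1 were higher and 2, 3 and 2 lower at an unadjusted p below 0.05. In bulk samples, fewer cells of a type and less RNA per cell cannot be told apart.

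Of 21 endothelial junction genes only Gja1, the gap junction protein connexin 43, rose (log2 0.94, adjusted p = 0.0233), and Cdh5, VE-cadherin, differed by -0.01. None of 14 leukocyte adhesion genes passed (median 0.03, with 4 higher and 1 lower at an unadjusted p below 0.05). Selp, P-selectin, was higher (0.89, adjusted p = 0.0844) and Sele, E-selectin, lower (-0.77, adjusted p = 0.283). Of 24 genes of shear stress and vasomotor control only Adm rose. The immediate-early genes, which tissue dissociation can induce, had 18 of 21 lower and 0 passing (median -0.21, with 2 higher and 6 lower at an unadjusted p below 0.05), with Fos at -0.38 (adjusted p = 0.26). None of 16 heat-shock chaperones (median 0.06) and none of 25 genes of the TNF and NF-κB response (median 0.15) passed, with 4 and 8 higher and 1 and 2 lower at an unadjusted p below 0.05.

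Of 28 genes of hypoxia and glycolysis Ankrd37, a target of hypoxia-inducible factor, rose by 1.45 and Ndrg1, induced by hypoxia and stress, by 0.94 (adjusted p = 0.0256 for both), and 21 of the 28 were higher (median 0.21). Leaving out array 1 of week 1 left 1 risen member, and leaving out any one of the other 5 left 0. Slc2a3, a glucose transporter outside that list, rose by 1.15, to 9.02, 9.33 and 8.99 at week 3. Its healthy arrays lay at 9.31, 9.91 and 9.43, and its other probe sets differed by 0.95, 0.41 and 0.71 without passing. Of 30 antioxidant and xenobiotic genes Ephx1, a microsomal epoxide hydrolase, fell by 0.74 (adjusted p = 0.0415), and Cyp1a1, a target of the aryl hydrocarbon receptor, was lower without passing (-1.29, adjusted p = 0.0599). None of 25 genes of fatty acid handling (median -0.08), 17 of retinoid handling (median -0.14) or 20 checkpoint and costimulatory ligands (median 0.07) passed. At an unadjusted p below 0.05, 1, 1 and 4 of them were higher and 0, 3 and 2 lower. In the last list, Cd274, which encodes PD-L1, had a difference of 0.82 (adjusted p = 0.0919).

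**Figure D4:**
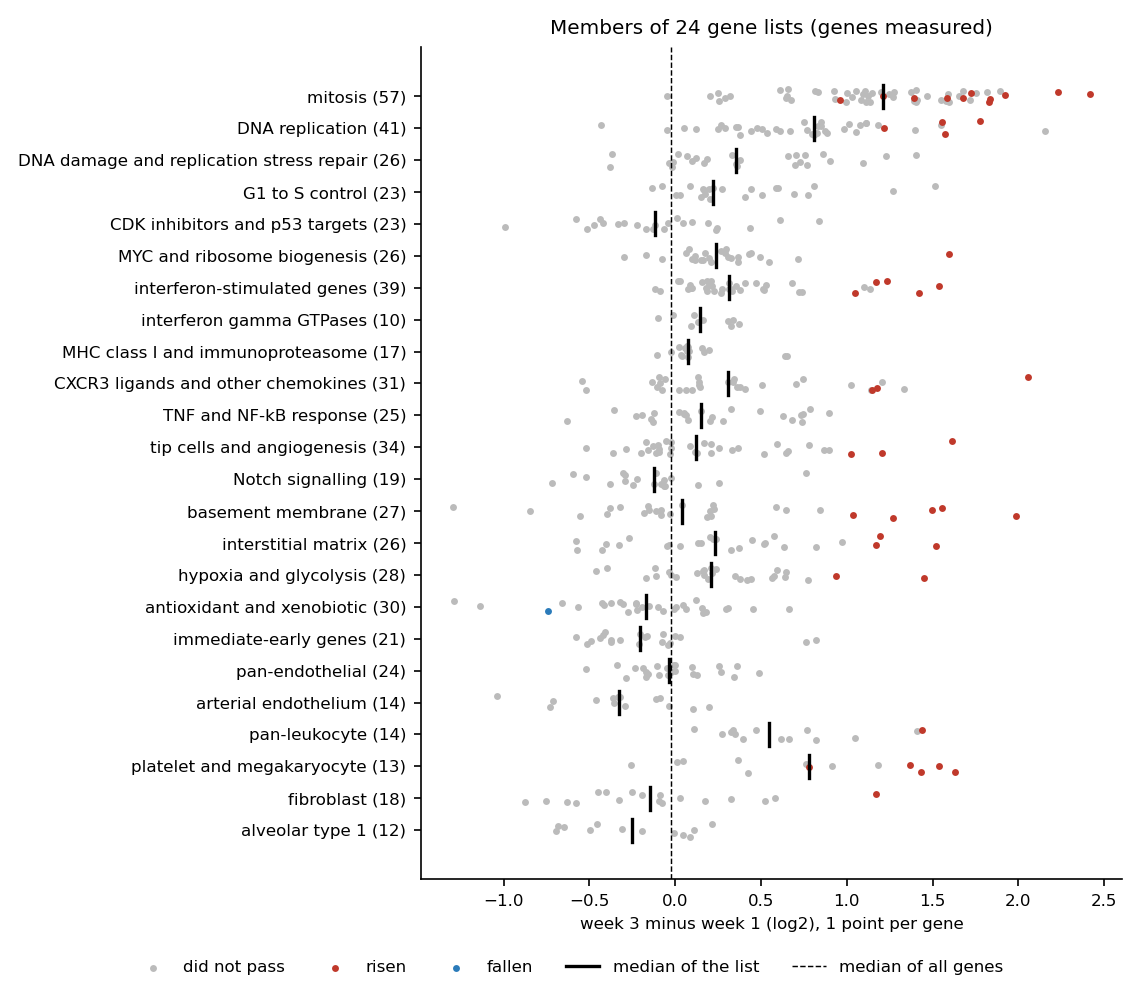
Difference between week 3 and week 1 (log2, horizontal) of every measured member of 24 gene lists, 1 row per list with the number of genes, 1 point per gene, a bar at the list median and a dashed line at the median of all genes (-0.02). The mitosis list (median 1.21) and the DNA replication list (0.81) lie farthest to the right, followed by the platelet list (0.78), and the arterial list (-0.33) lies farthest to the left.

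The plot of 24 lists also holds markers of cells that the sort should remove. Of 14 pan-leukocyte markers all 14 were higher at week 3 and 1 rose, Laptm5, a lysosomal protein of leukocytes (log2 1.44, adjusted p = 0.0433), with a median of 0.54. The summed level of this list, as its mean deviation, was -0.57 to -0.05 at week 1 and 0.28 to 0.36 at week 3, while healthy ECs lay at -0.07 to 0.29. The other probe sets of Laptm5 differed by 1.075, 0.572, 0.09 and -0.066 without passing. Of 18 macrophage and monocyte markers 0 passed, with 8 higher and 0 lower at an unadjusted p below 0.05 (median 0.37), with C1qa, a complement component made by macrophages, at 2.16 (adjusted p = 0.0722) and Csf1r, the receptor that defines these cells, at 0.14 (adjusted p = 0.865). C1qb, of the same list, differed by 1.30 (adjusted p = 0.0824), and a probe set of it that was not of highest mean passed (1.79, adjusted p = 0.0414). Among 14 neutrophil markers (median 0.23) only S100a8 rose (log2 1.26), and among 12 mast cell and basophil markers (median 0.32) only Ms4a2 rose (1.78). At an unadjusted p below 0.05, 4 and 6 members of these lists were higher and 0 lower. The other probe set of Ms4a2 differed by 0.07 without passing. Markers of T, NK and B cells (15 genes, median -0.11) and of dendritic cells (10 genes, median 0.11) did not pass, with 0 and 1 higher and 1 and 0 lower at an unadjusted p below 0.05. Other risen genes are well known from myeloid cells, namely C3ar1, the receptor for the complement fragment C3a (log2 1.92), Ctss, a lysosomal protease (1.53), and Clec7a, a receptor for fungal glucans (2.83-fold). Csf2rb and Csf2rb2, above, are also myeloid receptors. The part of leukocyte RNA in these rises, and in those of cell cycle and interferon genes, was not tested. On these arrays no marker is at 0, since log2 signals have a floor, and the lowest value of any probe set was 5.27.

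Of 13 platelet and megakaryocyte markers 5 rose, 8 did not pass, and the median was 0.78. Pf4, platelet factor 4, went from 8.32, 8.85 and 8.54 to 10.11, 10.28 and 9.94 (log2 1.54, adjusted p = 0.0181), and the healthy arrays at 10.05, 10.40 and 9.99 were as high as week 3. Itga2b, the platelet integrin that pairs with Itgb3, rose by 1.37 and Ppbp, a platelet chemokine, by 1.63. Tubb1 rose by 1.43 and Clec1b by 0.78. The mean deviation of the list was -0.44 to -0.31 at week 1, 0.22 to 0.52 at week 3 and 0.25 to 0.53 in healthy ECs. Without 1 array, 2 markers rose when array 2 of week 1 or array 1 of week 3 was left out, 1 without array 3 of week 1 or array 2 of week 3, and 0 without array 1 of week 1 or array 3 of week 3.

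Markers of mural cells (16 genes, median 0.08), alveolar type 1 cells (12, -0.25), alveolar type 2 cells (13, 0.29), mesothelium (8, 0.34) and erythroid cells (7, -0.08) held no gene that passed. At an unadjusted p below 0.05, 4, 0, 2, 1 and 0 of them were higher, in this order, and 3 alveolar type 1 markers and no others were lower. Of 21 complement and coagulation genes C3ar1 rose and Cd55, which protects cells from complement, fell (log2 -1.04, adjusted p = 0.0181).

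**Figure D5:**
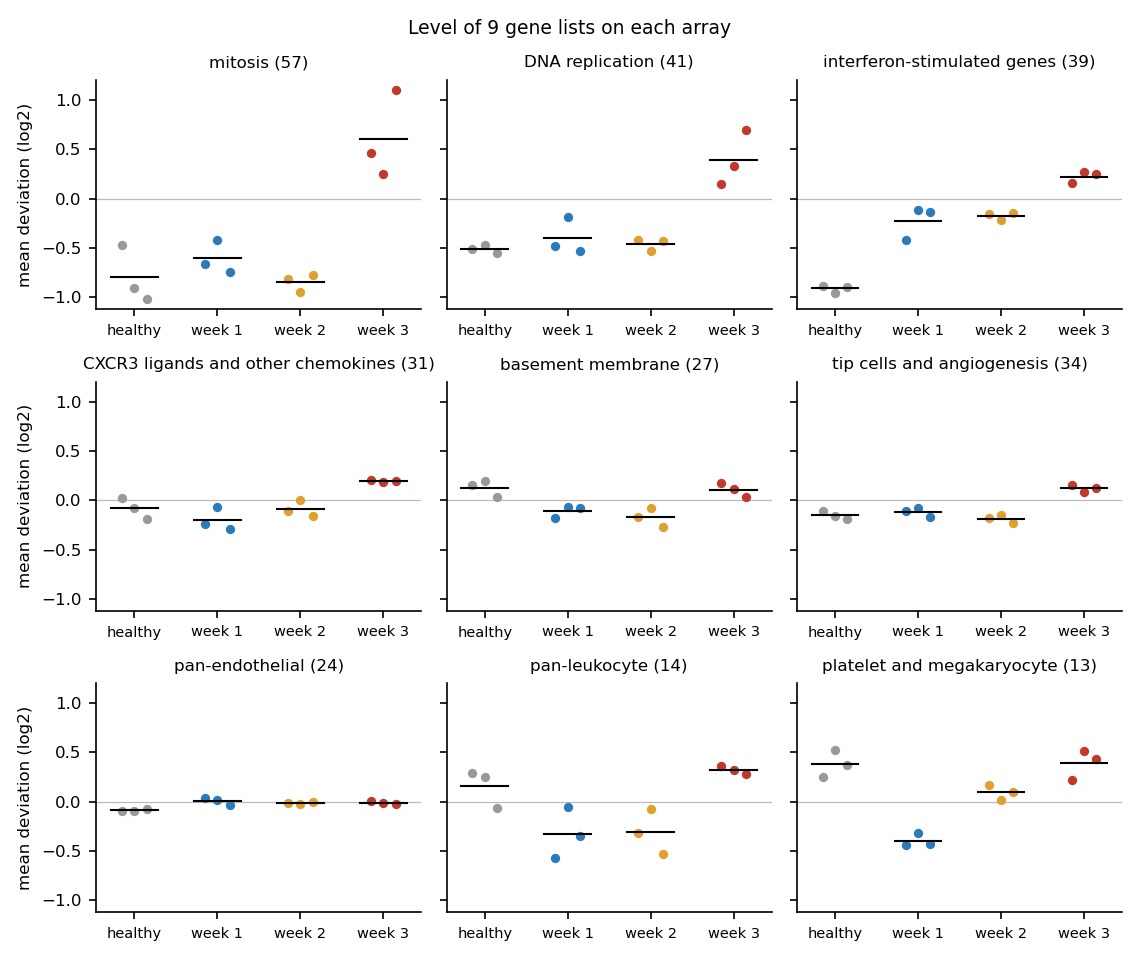
Level of 9 gene lists on each of the 12 arrays, as the mean over the list of each gene's difference from the midpoint of its week 1 and week 3 means (log2), with 1 point per array and a line at each group mean. Mitosis and DNA replication are high at week 3 alone, interferon-stimulated genes are lowest in healthy ECs, platelet genes are lowest at week 1, and pan-endothelial genes lie near 0 in every group.

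The plot of list levels places week 1 and week 3 among the other groups. The mitosis level was -0.66, -0.41 and -0.74 at week 1 and 0.46, 0.26 and 1.10 at week 3, and the healthy arrays (-1.02 to -0.47) and week 2 arrays (-0.95 to -0.77) lay near week 1. DNA replication ran from -0.53 to -0.18 at week 1 and from 0.15 to 0.70 at week 3. Pan-endothelial genes stayed between -0.10 and 0.04 on all 12 arrays.

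Over the 118 risen genes, the healthy mean was nearer to week 1 than to week 3 in 101 and lay above both weeks in 7, against 10625 and 4906 of all 18193 genes. Their week 2 mean was between the 2 weeks in 89, below both in 28 and above both in 1, and it was nearer to week 1 in 106. Over all genes it lay between in 6931 and was nearer to week 1 in 10473. For the 35 fallen genes the healthy mean was nearer to week 1 in 32 and the week 2 mean lay between in 31. All called genes were chosen for a wide gap between these 2 weeks, inside which other means fall more readily. The contrast of these counts with all genes is therefore partly set by that choice. Week 2 against healthy uses none of the 6 arrays compared here, and of all 18193 genes 19 rose (0.104%) and 25 fell (0.137%) in it. In that comparison 7 of the 118 risen genes rose and 1 fell, and 34 (28.8%) were higher at an unadjusted p below 0.05, against 5.27% of all genes. Of the same genes 15 (12.7%) were lower at that level, against 5.19% of all genes, and the median difference was 0.15 against 0.03. Zbp1, Ifit2 and Ifi202b were among the 7, with log2 differences of 1.49, 1.32 and 1.62 between week 2 and healthy. Of the 35 fallen genes 2 fell in it, and 8 (22.9%) were lower and 0 higher at an unadjusted p below 0.05, with a median of -0.15. Scara5 was 1 of the 2 (log2 -1.47, adjusted p = 0.0234), and its week 2 arrays at 7.80, 7.64 and 7.45 overlapped those of week 3.

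Over all probe sets the arrays were close to each other. The median standard deviation of a gene was 0.18 at week 1 and 0.14 at week 3. The correlation between arrays was 0.973 to 0.982 within a week and 0.966 to 0.975 between the weeks. The signal of the 3′ probe set of Gapdh exceeded that of its 5′ probe set, an excess that grows where RNA is less intact. It was 0.47, 0.42 and 0.53 at week 1 and 0.24, 0.28 and 0.40 at week 3. These groups do not overlap (two-sided exact permutation test, p = 0.1, the smallest that 3 against 3 arrays allow). For Actb the differences were 0.07, 0.12 and 0.14 against 0.02, 0.08 and 0.04 (exact permutation p = 0.2). The part of RNA integrity in the changes above was not tested.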

How the data were processed

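RNA of sorted lung ECs was labelled with a 3′ kit and hybridized to Affymetrix mouse arrays, with 3 arrays each for healthy lungs and weeks 1, 2 and 3. The deposited values are log2 signals, 1 per probe set, which the authors made in Chipster by robust multiarray average, a method that subtracts background and quantile-normalizes. They were used as deposited. Of 45101 probe sets, 64 array controls were set aside and 45037 tested, of which 34945 carry 1 gene symbol, 932 several and 9160 none in the platform annotation. A gene was read from its single-symbol probe set of highest mean. Of 18193 genes 9010 had more than 1.

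Following the 2-group empirical Bayes test of the methods, week 3 and week 1 were compared with limma 3.58.1 in R 4.3.3, with Benjamini-Hochberg adjustment over all 45037 probe sets. The limma test of week 3 against week 1 was tested on simulated data. Levels of different genes were not compared, and the arrays set the precision by their number, 3 per group.

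The text names the 15 largest rises and falls past the threshold, up to 4 leading and 4 opposing members of each list, the genes of the sort, the factors followed up by the study and the genes nearest to the threshold. Other genes, among them Csf2rb2, Lrg1, Tgfbi, Sting1, Ifi202b, Slc2a3, Ctss, Clec7a, Axin2 and members named for their known roles, were chosen after their values were seen. The comparison and the 52 gene lists, written from general knowledge and the niche factors from the study, were chosen with earlier results of these data known. Promoter windows came from RefSeq by gene symbol. The alternatives were all 4 groups in one fit, array weights, the mean of a gene's probe sets, median-centring, a second quantile normalization, probe sets above the median, no _x_at or _s_at probe sets, a trended and robust variance, the replicate number as a block and each array left out.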

Additional observations from a re-analysis of the deposited data

How the results depend on the processing

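The 153 genes called (118 risen, 35 fallen), 48 of them in the 32 program lists, became 530 (343 risen, 187 fallen, 140 in program lists) with all 4 groups in one fit, 435 (289, 146, 140) with a trended and robust variance, 368 (263, 105, 109) with the mean of a gene's probe sets, and 268 (193, 75, 92) among probe sets above the median. Of the 153, 148, 151, 136 and 142 were shared with these 4 in that order, the last of 142 tested. With array weights the count was 184, with median-centred or again quantile-normalized values 154, and without _x_at and _s_at probe sets 114 of 130 tested. With each array left out it lay between 0 and 52 (risen 0 to 41, fallen 0 to 11, program list members 0 to 17), with fewer arrays in each fit. With the replicate number as a block it was 3 (3 risen, 0 fallen, 0 program list members), with 1182 genes higher and 1079 lower at an unadjusted p below 0.05 in limma. The deviations of same-numbered arrays had correlations of 0.029, 0.002 and 0.029, and those of the other pairs ran from -0.037 to 0.010. With 3 arrays per group such values cannot show whether same-numbered samples share more than a number. All called genes kept their direction under each alternative in which they were tested. As their arrays did not overlap between the weeks, leaving out or weighting arrays or changing the variance could not reverse a direction. The number of arrays limits what could be called, and a gene that did not pass is not shown to be equal at the 2 weeks.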

Other observations

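Probe sets that were not read as the gene's value, and probe sets without a gene symbol, held larger differences than any of the 18193 genes. They were chosen after their values were seen, and the cause was not tested. A probe set of Mycn, a relative of Myc, lay at 7.90, 8.30 and 8.47 at week 1, 9.53, 10.48 and 8.85 at week 2 and 12.12, 11.61 and 11.92 at week 3 (log2 difference of week 3 to week 1 3.66, standard error 0.20, adjusted p = 0.00352), while the probe set of highest mean for Mycn differed by 0.10. One of Rpl27a, a ribosomal protein, went from 8.37 to 8.48 at week 1 to 11.61 to 12.09 at week 3 (lowest to highest array, log2 difference 3.49, adjusted p = 0.00177), while its healthy arrays lay at 9.51, 6.76 and 7.31 and its probe set of highest mean differed by 0.06. The largest 2 differences of all were those of probe sets with no symbol here, at log2 values of 4.10 and 3.88 (adjusted p = 0.00891 for both). In all, 289 probe sets were called, 221 of them risen, of which 153 gave a gene its value, 94 were other probe sets of a named gene, 10 carried several symbols and 32 none (22 risen, 10 fallen).

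There were 46 genes called only through a probe set that was not of highest mean. Several belong to the cell cycle, among them Ccna2, cyclin A2 (log2 2.04, adjusted p = 0.0256), the mitotic motor Cenpe (1.75, adjusted p = 0.0246), Hmmr (1.34, adjusted p = 0.0256), Kif20b (1.56, adjusted p = 0.0463) and Racgap1, which acts in cytokinesis (1.58, adjusted p = 0.0438). Selp, P-selectin, rose by 1.13 through such a probe set (adjusted p = 0.0256), Smad1, which carries BMP signals, by 1.15 (adjusted p = 0.0374) and Lgals1, galectin 1, by 1.55 (adjusted p = 0.0365). Ackr4, a scavenging chemokine receptor, fell by 1.57 (adjusted p = 0.0112), although its probe set of highest mean differed by -0.06.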
